A study of Danio rerio with 50 samples.

Results

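The heat shock and chaperone genes of zebrafish olfactory sensory neurons (OSNs) were examined in single cells and in bulk. They were taken by name, as every gene in both count tables whose symbol, in upper or lower case, begins with dnaj, with hsp or with cct and a digit, leaving out hspa5, the hspg genes and the hspbp genes. This gave 89 of 29033 genes. By name 11 belong to the HSP70 family, 4 to HSP110, 4 to HSP90, 10 to the small heat shock proteins, 2 to the mitochondrial HSP60 and HSP10, 6 to DNAJA, 14 to DNAJB, 31 to DNAJC and 7 to the CCT chaperonin. No expression value entered this choice. DNAJA4, in contrast, was picked by the study from these same cells for its level in 1 clade, so that its levels are given as a description with no test.

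Chaperones bind unfolded proteins and help them to reach or regain their folded state. HSP70 proteins do this in cycles of ATP binding and hydrolysis that are started by J-domain proteins of the DNAJ families and ended by exchange factors such as the HSP110 proteins, HSP90 acts late on signalling proteins and receptors, and the CCT ring folds actin and tubulin. Some of these genes are always on, whereas others, the inducible hsp70 genes among them, are switched on by heat shock factor when a cell is stressed, which includes the stress of taking a tissue apart.

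The cells came from Tu/TLF embryos at 48 hours post-fertilization that carried the zOMP:RFP transgene, in which regulatory sequence of olfactory marker protein drives a red protein in OSNs. Olfactory tissue of many embryos was pooled, dissociated with trypsin at 28 degrees, sorted for the red protein and captured on a Fluidigm C1 chip in 2 runs, here taken to be the cells with Fluidigm spike-in RNA (14 cells) and the cells with ERCC spike-in RNA (33 cells). The 3 bulk libraries were made from about 1000 cells each, at the same stage and of the same strain, that also carried or111-7:IRES:GAL4 and UAS:Citrine beside zOMP:RFP and were sorted for both colours. The or111-7 transgene, of a clade A receptor, labels only a subset of OSNs. The labels name the spike-in set and whether a library is a cell or bulk, but no animal, clade or stage.

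Classes of cells were therefore assigned from their odorant receptor (OR) and maturity genes, none of them a chaperone. A cell with an OR gene at 20 CPM (counts scaled to the library total) or more took the clade of its highest OR, and among the others a cell with gap43 and gng8, genes of young neurons, at a summed 20 CPM or more was called immature. Immature cells numbered 5 (1 Fluidigm and 4 ERCC) and mature cells without an OR 13 (2 and 11), while 9 cells (5 and 4) fell into clade A, 10 (3 and 7) into clade B and 10 (3 and 7) into clade C. Class and set are thus not independent, and values are given within each set where this matters. Cells held 6951519 to 30192554 counts and bulk libraries 2651985 to 6250589, and 0 pairs of cells were identical. The mature markers ompb, gng13b, gnal and cnga4 summed to a median of 138 CPM in immature cells and of 3278 CPM where no OR was found, against 5552, 2952 and 5679 CPM in the clades A, B and C. Single cells did not keep to this order. The lowest sum was 1.49 CPM among mature cells without an OR, 2.64 CPM for clade A and 2.38 CPM for clade B. Each lay below the lowest immature cell, at 5.06 CPM, whereas no clade C cell was under 1579 CPM. The name mature thus follows from the rule above and not from these markers, and the maturity comparisons below use it in this sense. Markers of other cells were present as well. Epcam, an epithelial gene, reached 100 counts in 42 of 47 cells, krt4 lay between 1253 and 3683 CPM in the bulk libraries, and the 4 haemoglobin genes summed to 45.2, 9.44 and 8238 CPM in bulk libraries 1, 2 and 3. The part of these cells' RNA in the bulk values below was not tested, and in bulk fewer cells of a type and less RNA per cell cannot be told apart.

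Chaperone transcripts took a mean of 3.02% of the counts of a cell. Of the 89 genes, 68 reached 100 counts in at least 1 cell, the count of the study's own filter, and 21 reached it in none. Detection was uneven. Of the 68 genes, 27 reached 100 counts in 1 to 5 cells, while 7 reached it in 40 or more of the 47 cells. These 7 were the inducible hsp70l (44 cells), hsp70.1 (40), hsp70.2 (42), hsp70.3 (45) and hsp90aa1.2 (45), and the constitutive hsp90ab1 (46) and hspa8 (47). Together they made up a median of 79.8% of the summed chaperone CPM of a cell, with a lowest cell at 16.7% and a highest at 97.1%. The 21 genes that stayed below 100 counts included 8 of the 10 small heat shock protein genes (hspb2, hspb3, hspb6, hspb7, hspb8, hspb9, hspb11 and hspb15), as well as hspa12a, hspa12b, dnaja3b, dnajb5, dnajb9b, dnajc2, dnajc3b, dnajc5b, dnajc5gb, dnajc9, dnajc21, dnajc28 and dnajc30b. In the bulk libraries 53 of the 89 genes were above 0 in every library and 5 (dnajb5, dnajc25, hspb2, hspb3 and hspb9) were at 0 in all of them.

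**Figure D1:**
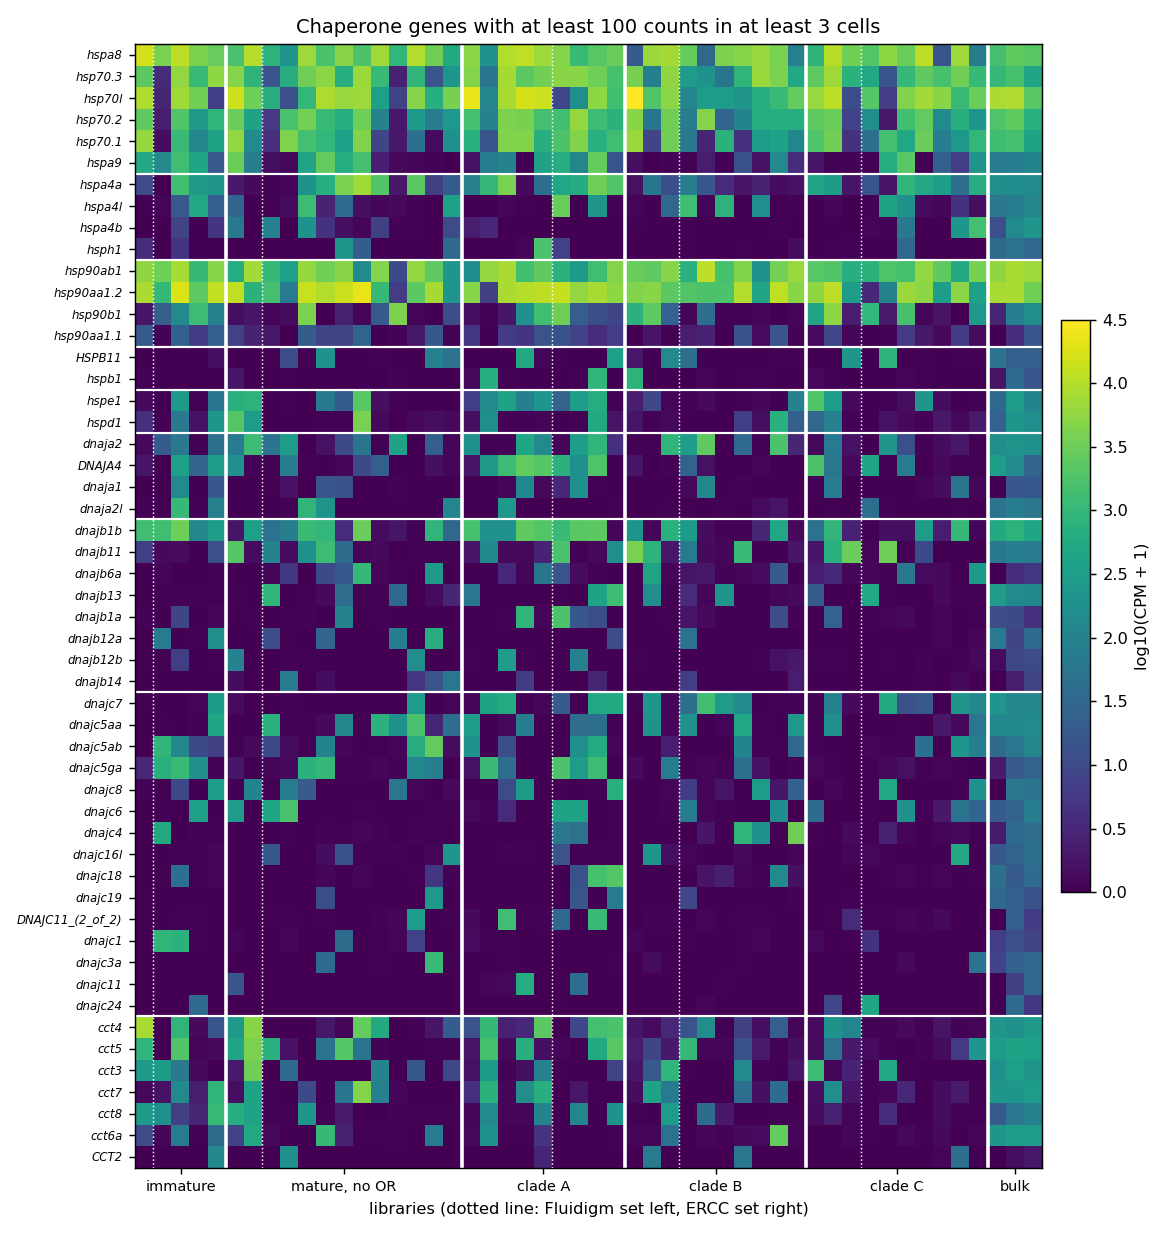
Level of the 52 chaperone genes that reached 100 counts in at least 3 of the 47 cells, as log10 of CPM plus 1 on a colour scale; rows are genes grouped by family, columns are single cells grouped by class and spike-in set, and the 3 bulk libraries stand at the right. Rows of hspa8, hsp90aa1.2, hsp90ab1 and the hsp70 genes are bright across classes, while most J-domain and CCT genes are bright in a few scattered cells.

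The summed level of the 89 genes, in CPM, ran from 13205 through a median of 31189 to 67455 in immature cells and from 5905 through 29068 to 73117 in mature cells without an OR. It ran from 15128 through 42257 to 59206 in clade A, from 9875 through 21923 to 59349 in clade B and from 8057 through 18093 to 57353 in clade C. Bulk libraries 1, 2 and 3 had 32084, 39360 and 21016 CPM (mean 30820 ± 9237, SD, n = 3). All classes overlapped, and their medians differed by less than the range within each. Bulk library 3, with the haemoglobin signal, was the lowest. The set mattered too. Fluidigm cells had a median of 46540 CPM and ERCC cells one of 20512 CPM. Within the Fluidigm set the median was 51917 CPM in clade A, against 36541 in clade B and 27750 in clade C, and within the ERCC set it was 35619 CPM in clade A, against 19297 and 15708. The 4 ERCC cells of clade A lay between 28321 and 42809 CPM, a range that overlapped with those of clade B (9875 to 31625) and clade C (8057 to 39051).

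**Figure D2:**
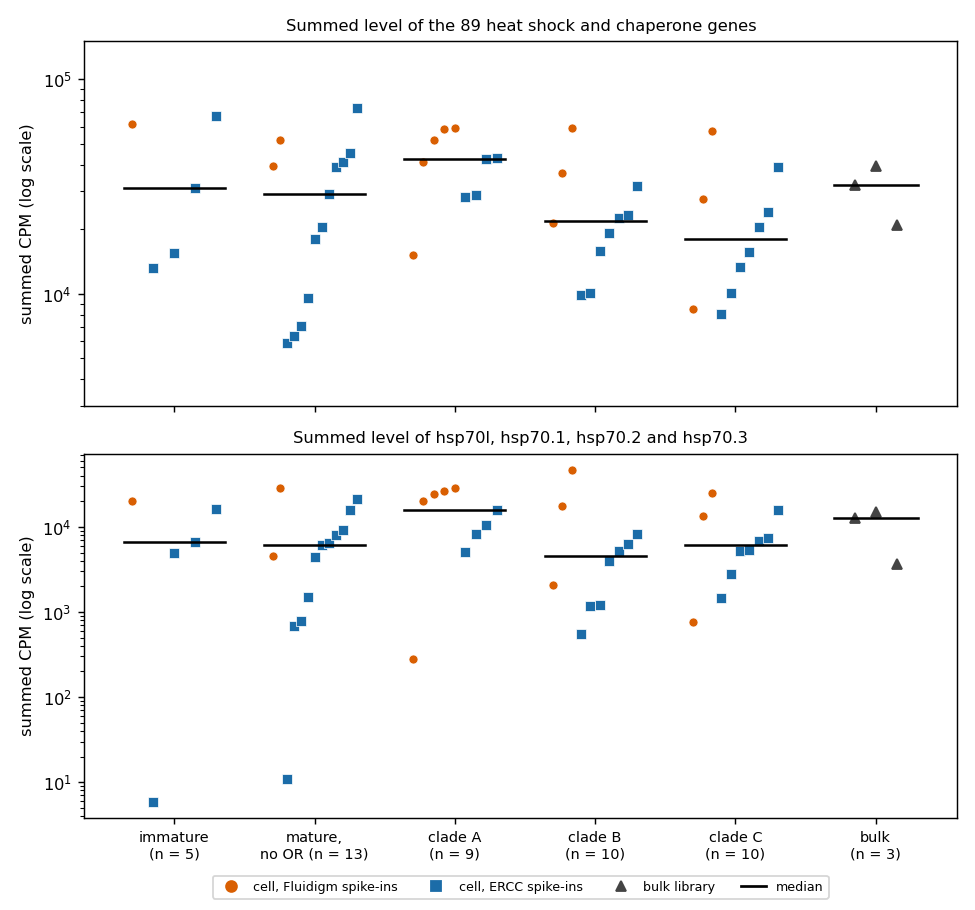
Summed CPM of the 89 chaperone genes (top) and of hsp70l, hsp70.1, hsp70.2 and hsp70.3 (bottom) on log axes; each orange circle is a Fluidigm cell, each blue square an ERCC cell and each triangle a bulk library, and the bar is the median. The classes overlap in both panels, and the clade A medians are 42257 and 15681 CPM.

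Among the HSP70 genes, hspa8, the constitutive cytosolic form, had a median of 4046 CPM over immature cells and of 1769 CPM over mature cells without an OR. In the clades A, B and C the median was 4777, 4036 and 3222 CPM, and the bulk libraries lay between 1515 and 2509 CPM. It was the one chaperone that reached 100 counts in every cell. Even so it spanned 15.2 to 10795 CPM within clade C. The inducible hsp70l, hsp70.1, hsp70.2 and hsp70.3 are similar copies, but their sequences were not compared here. Single cells could differ between them. In 1 ERCC cell of clade C hsp70.1 had 25488 counts, against 17 for hsp70.2 and 97 for hsp70l. Whether reads were split among the copies was not tested, and they are read here as a sum. That sum had a median of 6696 CPM over immature cells (5.86 to 19981), 6048 CPM where no OR was found (10.9 to 28292), 15681 CPM in clade A (277 to 28640), 4584 CPM in clade B (545 to 46255) and 6118 CPM in clade C (759 to 24879), and was 12670, 14915 and 3681 CPM in bulk libraries 1, 2 and 3. Here the set separated more than the class. The median was 20076 CPM over Fluidigm cells and 5369 CPM over ERCC cells, and within these sets it was 24317 and 9384 CPM in clade A, 17715 and 3945 in clade B and 13269 and 5369 in clade C. Hspa9, the mitochondrial HSP70, reached 100 counts in 5 of 5 immature cells and in 6 of 13 mature cells without an OR, and in clades A, B and C it did so in 7 of 9, 2 of 10 and 5 of 10 cells.

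In the HSP110 family, whose proteins exchange nucleotide on HSP70, hspa4a was the most widely detected. Its level ran from 0.314 through a median of 576 to 3854 CPM in clade A, from 0.398 through 1.97 to 79.6 CPM in clade B and from 0.832 through 301 to 900 CPM in clade C, and 8 of 9, 4 of 10 and 8 of 10 cells reached 100 counts. The ranges overlapped, with that of clade B inside that of clade A, and low cells were found in all 3 clades. The median was 209 CPM over immature cells and 19.3 CPM over mature ones without an OR, and bulk lay between 134 and 167 CPM. Hspa4b reached 100 counts in 3 clade C cells (1410, 234 and 61.4 CPM) and in no clade A or B cell, and hspa4l reached it in 2 of 9, 4 of 10 and 2 of 10 cells of clades A, B and C. Hsph1 reached it in 2 clade A cells, at 1708 and 6.76 CPM, and in 1 clade C cell at 29.4 CPM.

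Of the HSP90 genes, the inducible hsp90aa1.2 had a median of 8639 CPM over immature cells (995 to 17383) and of 2308 CPM over mature cells without an OR (5.57 to 22565). In clade A the median was 7997 CPM (6.204 to 12879), against 3321 CPM in clade B (427 to 11637) and 2831 CPM in clade C (2.16 to 11436). All of these ranges overlapped, and the bulk libraries had 3500 to 8467 CPM. Hsp90ab1, the constitutive form, had its lowest clade median in clade A (1345 CPM, 153 to 8324), against 3277 CPM in clade B (183 to 11365) and 1844 CPM in clade C (524 to 5973). Hsp90aa1.1, described in zebrafish for its part in muscle myosin folding, did not exceed 27.7 CPM in any cell. Because it is close in sequence to hsp90aa1.2, this low level may include shared reads. Hsp90b1, the endoplasmic reticulum form, reached 100 counts in 23 cells.

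The small heat shock proteins were nearly silent. The canonical hspb1 reached 100 counts in 2 clade A cells (922 and 693 CPM) and 1 clade B cell (801 CPM), and in no other cell. Hspb8 did not exceed 0.203 CPM and hspb11 did not exceed 0.107 CPM in any cell. HSPB11 in capitals is a separate gene in the tables, whose name is also used for an intraflagellar transport protein of mammals, and it reached 100 counts in 10 cells. For the mitochondrial pair, hspe1 (HSP10) had a median of 134 CPM in clade A, with 8 of 9 cells at 100 counts, against 0.212 CPM in clade B (2 of 10) and 0.354 CPM in clade C (3 of 10). The single highest clade value nevertheless was a clade C cell at 1917 CPM, and clade A did not exceed 598 CPM. Hspd1 (HSP60), its partner, reached 100 counts in 2 of 9, 3 of 10 and 2 of 10 cells of clades A, B and C, so the pair was not detected in the same proportions.

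DNAJA4, a J-domain partner of HSP70, was at 2614, 2051, 1192, 276 and 0.785 CPM in the 5 Fluidigm cells and at 1807, 783, 177 and 0 CPM in the 4 ERCC cells of clade A. In clade B it ran from 0 through a median of 0.0507 to 25.9 CPM. In clade C it ran from 0 through 0.282 to 1723 CPM, with 3 further cells at 435, 76.4 and 57.7 CPM. Most clade A cells were high and most clade B and C cells low, but the ranges overlapped, because 2 clade A cells were below 1 CPM and the clade C cells at 1723 and 435 CPM fell among the 7 high clade A cells. Clade A had 7 of 9 cells with 100 counts of DNAJA4 (77.8%, exact 95% binomial interval 39.99 to 97.2%). Clade B had 1 of 10 (10%, 0.253 to 44.5%) and clade C 4 of 10 (40%, 12.2 to 73.8%). These intervals cover the sampling of cells only, and they treat cells as independent although cells of a set are taken to share a run. Counts are of reads, which carried no molecular identifiers.

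Both sets showed this order. The mean was 1227 CPM in clade A, against 297 CPM in clades B and C, among Fluidigm cells (a log2 difference of 2.04 with 1 CPM added to each mean), and 692 against 38.5 CPM among ERCC cells (4.13). The fitted log2 fold change of the summed counts was 4.95 (SE 1.92). Outside the clades DNAJA4 reached 100 counts in 3 of 5 immature cells and 4 of 13 mature cells without an OR, with medians of 28 and 0.207 CPM and highest cells at 378 and 191 CPM. The bulk libraries, of OSNs sorted by a clade A reporter line, had 314, 147 and 28.8 CPM (mean 163 ± 143, SD, n = 3), the lowest being library 3 with the haemoglobin signal. When the 3 cells whose OR was below 200 CPM were left out, an alternative chosen after the data had been seen, DNAJA4 reached 100 counts in 6 of 8, 1 of 9 and 3 of 9 cells.

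**Figure D3:**
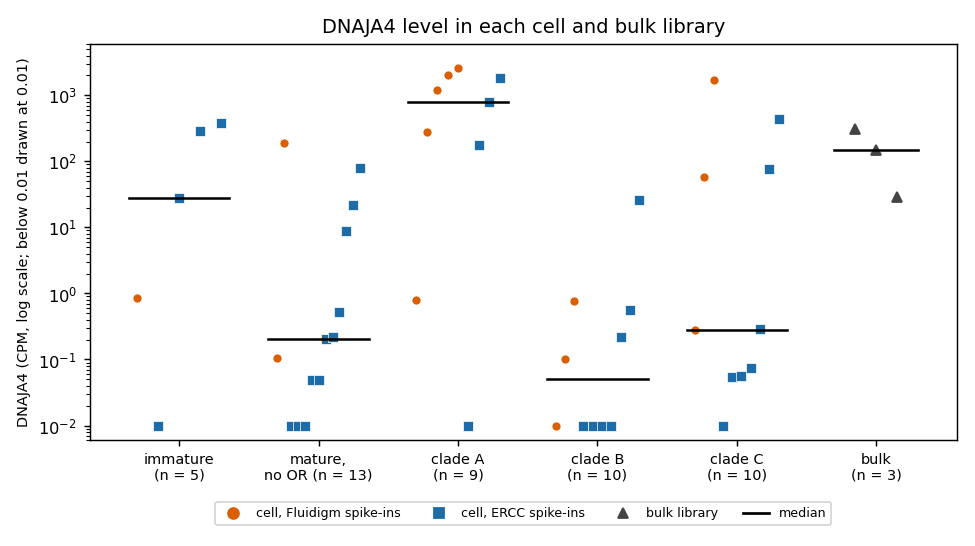
DNAJA4 in each cell and bulk library, in CPM on a log axis with values below 0.01 drawn at 0.01; orange circles are Fluidigm cells, blue squares ERCC cells, triangles bulk libraries and bars medians. The clade A median is 783 CPM, against 0.0507 in clade B and 0.282 in clade C, while 2 clade A cells lie below 1 CPM and 1 clade C cell at 1723 CPM.

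The other DNAJ genes were sparser. Dnajb1b, a J-domain partner that is heat-inducible in other vertebrates, had a median of 1542 CPM in clade A (0.216 to 2474, 8 of 9 cells at 100 counts), against 1.15 CPM in clade B (0.0495 to 757, 4 of 10) and 1.43 CPM in clade C (0.0481 to 982, 4 of 10). It was detected in 5 of 5 immature cells, with a median of 1294 CPM, and in 8 of 13 mature ones lacking an OR (median 48.6 CPM). In bulk it was at 601 ± 191 CPM (SD, n = 3). Dnaja2 reached 100 counts in 24 cells, dnajb11, the endoplasmic reticulum form, in 18 cells, dnajc7 in 18 cells, dnajb13 in 10 cells and dnaja2l in 7 cells. Dnajc5aa and dnajc5ga encode cysteine string proteins, which keep synaptic vesicle release working in neurons. Dnajc5ga ran from 0 through 41.4 to 1721 CPM in clade A (5 of 9 cells at 100 counts) and did not exceed 77.0 CPM in clade B or 0.601 CPM in clade C, while dnajc5aa reached 100 counts in 4 of 9, 4 of 10 and 2 of 10 cells of these clades.

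The CCT genes, whose products form 1 ring, were each detected in a part of the cells, and these cells overlapped in part. In 1 clade A cell of the Fluidigm set, with a weak OR at 55.5 CPM, cct3, cct4, cct5, cct6a, cct7 and cct8 all reached 100 counts. The same held for a Fluidigm cell that was mature without an OR and for an immature ERCC cell, while many other cells held only some of them. Cct4 reached 100 counts in 6 of 9 clade A cells (median 13.4 CPM, highest 2291), against 4 of 10 clade B cells (1.504 and 164) and 2 of 10 clade C cells (0.225 and 207). Cct5 reached it in 4, 3 and 2 cells and cct7 in 3, 4 and 1 cells of these clades. In bulk these genes varied little, with cct4 between 181 and 263 CPM, cct5 between 298 and 398 CPM and cct7 between 222 and 301 CPM. The single-cell medians of cct5 did not exceed 1.06 CPM in any class.

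To ask whether the other chaperones followed DNAJA4 in clade A, counts were summed per clade within each set, which gave 6 sums, and tested with edgeR over the 5623 genes that reached 100 counts in 3 or more of the 29 cells with an OR. Of the 89 chaperones, 44 passed this filter. For clade A against the mean of clades B and C, edgeR called 0 of the 44 at an adjusted p of 0.05, with 0.0178% of all genes tested called, and the smallest adjusted p among the 44 was 0.755. At an unadjusted p under 0.05 there were 7 of 44 (15.9%), against 5.05% of all genes tested. All 7 were higher in clade A, where 3.24% of all genes were. These were DNAJA4, for which this is no test, hspa4a (log2 fold change 3.68, SE 1.799), cct4 (4.83, SE 2.43), dnajc5ga, dnajc18, hsph1 and DNAJC11_(2_of_2). Dnajc5ga, dnajc18, hsph1 and DNAJC11_(2_of_2) passed the filter only with their clade A cells, so their place here is a description. Leaving out 1 sum at a time gave 1 to 5 genes, and without the clade C ERCC sum the count was 1 of 44 (2.27%, against 2.28% of all genes tested). The set as a block gave 4 (9.09%, against 3.49%). DESeq2 called 5 of 44 (11.4%) against 14.2% of all genes tested. All 5 were higher in clade A, where 4.73% of all genes were called higher. All 5 also passed the filter only with their clade A cells. The sums varied widely around each other, with a common dispersion of 3.56 over all genes, so that the lack of edgeR calls does not show that the clades are alike.

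The 5 genes called by DESeq2 each rested on a few cells. Dnajc18 reached 100 counts in 3 clade A cells, at 1937, 1561 and 12.6 CPM, in 1 clade B cell at 137.1 CPM and in no clade C cell, and its counts were 0 in the Fluidigm sums of all 3 clades. DNAJC11_(2_of_2), 1 of 2 gene models for a mitochondrial J-domain protein, reached it in 3 clade A cells, at 1338, 1101 and 31.7 CPM, and in no clade B or C cell. It passed the filter through its clade A cells alone, so that it had to be higher there and its call adds nothing. Dnajb1a reached it in 4 clade A cells, at 1755, 879, 16.3 and 11.1 CPM, against 1 clade B cell at 10.7 CPM and 1 clade C cell at 25.1 CPM. Dnajc5ga and hsph1, described above, made up the rest. Leaving out the clade A ERCC sum turned the dnajc18 difference to the opposite sign.

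As fitted, 33 of the 44 genes (75.0%) were higher in clade A, against 54.7% of all genes tested. Their median log2 fold change was 1.33, or 1.19 without DNAJA4, against 0.33 for all genes tested. With the size factors of DESeq2 in place of TMM the count was 29 (65.9%, against 50.4%), and the median without DNAJA4 was 0.72, against 0.02. Leaving out 1 sum at a time moved this median between 0.55 and 1.74. Without the clade C ERCC sum it was 1.14, below the 1.48 of all genes tested, and without the clade A ERCC sum it was 0.55. The families moved unevenly. In clade A 3 of 4 HSP110 genes, 5 of 7 CCT genes, 9 of 11 DNAJC genes, 3 of 5 DNAJB genes and 3 of 3 DNAJA genes were fitted higher, with medians of 2.71, 2.76, 2.15, 1.69 and 1.48, and these counts were the same with the size factors of DESeq2. Tcp1, a CCT subunit gene that the choice by name left out, was fitted lower, at -11.2 (SE 6.14). Both genes tested under small heat shock protein names, hspb1 and HSPB11, and both mitochondrial genes were higher too, with medians of 3.30 and 1.31. The HSP70 and HSP90 families, which hold the abundant genes, had the smallest medians, 0.19 and 0.18, and 4 of 6 and 2 of 4 of their genes were higher, or 1 of 6 and 1 of 4 with the size factors of DESeq2. Cct6a, cct8, dnajb1a, dnajc5ga, dnajc18, dnajc19, hsph1, hspb1 and DNAJC11_(2_of_2), all fitted higher, passed the filter only with their clade A cells. Dnajc16l did so too but was fitted lower. The counts and medians given here are therefore a description.

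Taken within each set, 18 of the 43 chaperones other than DNAJA4 (41.9%) were higher on average in clade A, set against clades B and C, in both sets, and 6 (13.95%) were lower in both, against 18.5% and 32.2% of all genes tested. The 18 include dnajb1a, dnajc5ga, hspb1 and DNAJC11_(2_of_2), which passed the filter only with their clade A cells. These shares are therefore a description too. Hspa4a had means of 996 CPM in clade A, against 127.6 CPM in clades B and C, in the Fluidigm set, and of 1530 against 182 CPM in the ERCC set. Dnajb1b had 1280.5 against 322 CPM and 1422 against 145 CPM, and cct4 had 671 against 53.3 CPM and 780 against 14.8 CPM. Some of these means rested on few cells. In the Fluidigm set hspa4a had 87979, 24566, 1698, 1083 and 7 counts in the clade A cells, so that 1 cell carried most of the mean. Clade C cells of that set had 6802, 5977 and 9 counts of hspa4a. For cct4, clade A cells other than those at 59139, 31006, 27194 and 25831 counts had 256 counts or fewer. Hsp70l and hspa8 did not keep 1 direction, with log2 differences of 0.39 and 0.48 in the Fluidigm set and -0.24 and -0.40 in the ERCC set. Hspe1 was lower in the Fluidigm set (-1.12) and higher in the ERCC set (3.23), and dnajc16l was lower in both.

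**Figure D4:**
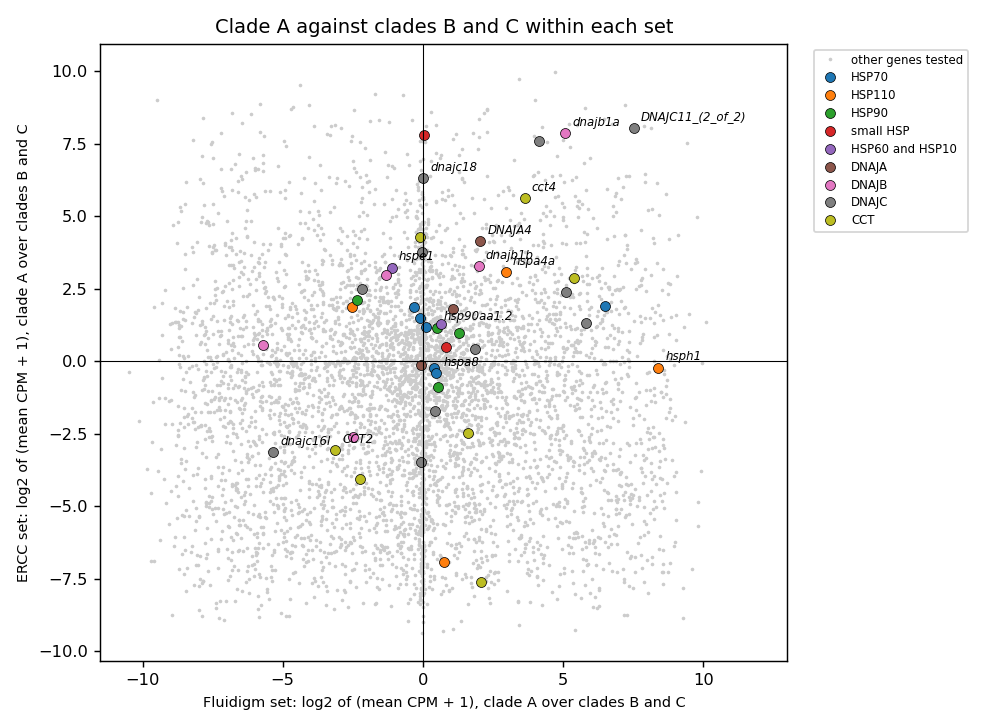
Clade A against clades B and C within each spike-in set, as the log2 ratio of mean CPM plus 1, for the Fluidigm set (horizontal) and the ERCC set (vertical); coloured points are the chaperones that passed the filter, by family, and grey points are the other genes tested. Of the 43 chaperones other than DNAJA4, 18 lie to the upper right and 6 to the lower left. Some of the 18 passed the filter only with their clade A cells.

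Markers of dissociation were high by their median in the Fluidigm cells of clade A, and differed less between the sets in the other clades. The summed level of 24 immediate early and dissociation genes had a median of 11958 CPM in the Fluidigm and 5270 CPM in the ERCC cells of clade A, against 3312 and 4769 CPM for clade B and 5475 and 4751 CPM for clade C. It was 6723 to 9864 CPM in bulk. Of the 14 that were tested, 12 (85.7%, against 54.7% of all genes) were fitted higher in clade A with a median of 1.02, edgeR called 0, and 1 had an unadjusted p under 0.05, the stress transcription factor gene atf3, which DESeq2 also called. The study had picked atf3 from these same cells for its clade A level, so neither this p nor this call is a test. Clade A cells also had more genes at 100 counts, with a median of 1966, against 1645.5 in clade B and 1758.5 in clade C. The number of chaperones at 100 counts was 15, 24 and 29 (lowest, median and highest) in clade A, 10, 16 and 22 in clade B and 8, 14.5 and 25 in clade C. The part of dissociation and of gene detection in the chaperone levels was not tested.

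Among 32 tested genes for regulators and cochaperones, a list that also holds hsp90b1 and the CCT subunit gene tcp1, edgeR called 0 in clade A. Fitted values were higher for 21 of 32 (65.6%, against 54.7% of all genes), with a median of 0.70. At an unadjusted p under 0.05, 1 was higher, hspa5 (BiP, the HSP70 of the endoplasmic reticulum), and 1 was lower, bag6, while DESeq2 called 1 higher (asna1) and 3 lower (bag6, sgtb and tcp1), or 4 of 32 against 14.2% of all genes. The study had also picked asna1 for clade A and sgtb for clade B from these same cells, so their calls are no test.

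For clade B against the mean of clades A and C, edgeR called 0 of 44 chaperones (0.0178% of all genes tested), and 1 of 44 (2.27%, against 5.19%), had an unadjusted p under 0.05 and was lower, as were 1.33% of all genes. This gene was DNAJA4, for which neither this p nor the DESeq2 call below is a test. DESeq2 called 6 (13.6%, against 17.5% of all genes). It called cct6a higher (7.24% of all genes were) and DNAJA4, DNAJC11_(2_of_2), dnajb1a, hspe1 and hsph1 lower (10.2% of all genes were). The cct6a call rested on 1 clade B cell at 2782 CPM, and cct6a passed the filter only with its clade B cells. DNAJC11_(2_of_2) and hsph1 reached the filter's count in no clade B cell, so that they had to be lower there. Dnajb1a passed the filter only with its clade A cells, which lie on the other side of this contrast. The calls of cct6a, dnajb1a, DNAJC11_(2_of_2) and hsph1 are therefore a description. For clade C against the mean of clades A and B, edgeR called 0 (0.0178% of all genes), and 2 (4.55%, against 5.51%) had an unadjusted p under 0.05, hspa4b higher (4.34% of all genes) and dnajc18 lower (1.17%). DESeq2 called 7 (15.9%, against 16.6%), hspa4b higher (7.47% of all genes) and cct6a, cct8, dnajc4, dnajc5ga, dnajc18 and hspb1 lower (9.16%). Hspa4b passed the filter through 3 clade C cells alone, so that it had to be higher there. The genes called lower in clade C reached the filter's count in no clade C cell, so that they had to be lower. The clade C calls of DESeq2, and the unadjusted p of hspa4b and of dnajc18, are therefore a description. The 3 clade contrasts share the same sums and are not independent. Fitted values were higher for 19 of 44 genes (43.2%, against 53.7% of all genes) in clade B and for 16 (36.4%, against 55.1%) in clade C. Median log2 fold changes were -0.09 in clade B, against 0.26 for all genes, and -0.49 in clade C, against 0.33.

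Over single cells, the chaperones had a positive Spearman's rho with DNAJA4 about as often as all genes did. The rho with DNAJA4 over the 29 cells with an OR had a median of 0.109 over 43 chaperones, against 0.0321 over all genes tested, with 5th and 95th percentiles of -0.31 and 0.36 over all genes. It was positive for 25 of 43 chaperones (58.1%) and for 55.9% of all genes. These cells share runs, depth and detection, and DNAJA4 itself had a rho of 0.493 with the number of genes detected (-0.145 in the Fluidigm and 0.452 in the ERCC set). Within the Fluidigm set (11 cells) the median was 0.0136, against -0.0191 for all genes, and within the ERCC set (18 cells) it was 0.00526, against 0.0749. A positive rho was found for 54.8% of the chaperones, against 46.5% of all genes, in the Fluidigm set and for 51.2%, against 60.9%, in the ERCC set. Hspe1 was the most alike at 0.57, with 0.70 and 0.41 in the Fluidigm and ERCC sets. Dnajb1b followed at 0.53 (0.53 and 0.37) and hsp90b1 at 0.49, which was present in the ERCC set (0.76) and not in the Fluidigm set (-0.05). Dnajb1a at 0.44 (0.48 and 0.65), hsp70.2 at 0.43 (0.32 and 0.28) and dnaja1 at 0.40 (0.78 and 0.34) also lay above the 95th percentile of all genes. The lowest were dnajc18 (-0.41), cct6a (-0.30) and hsp90ab1 (-0.28), of which only dnajc18 lay below the 5th percentile. Part of the ranks behind these values rests on few reads. DNAJA4 reached 100 counts in 12 of the 29 cells and had 15 counts or fewer in the others. Among the Fluidigm cells with an OR, dnaja1 had 2761 and 1451 counts in 1 cell each and 6 or fewer in the others. Dnajb1a had 19585 and 535 counts there, and 4 or fewer in the others. With the summed hsp70 genes DNAJA4 had a rho of 0.444 (0.209 in the Fluidigm and 0.354 in the ERCC set). With all other chaperones summed it was 0.343 (0.327 and 0.020).

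**Figure D5:**
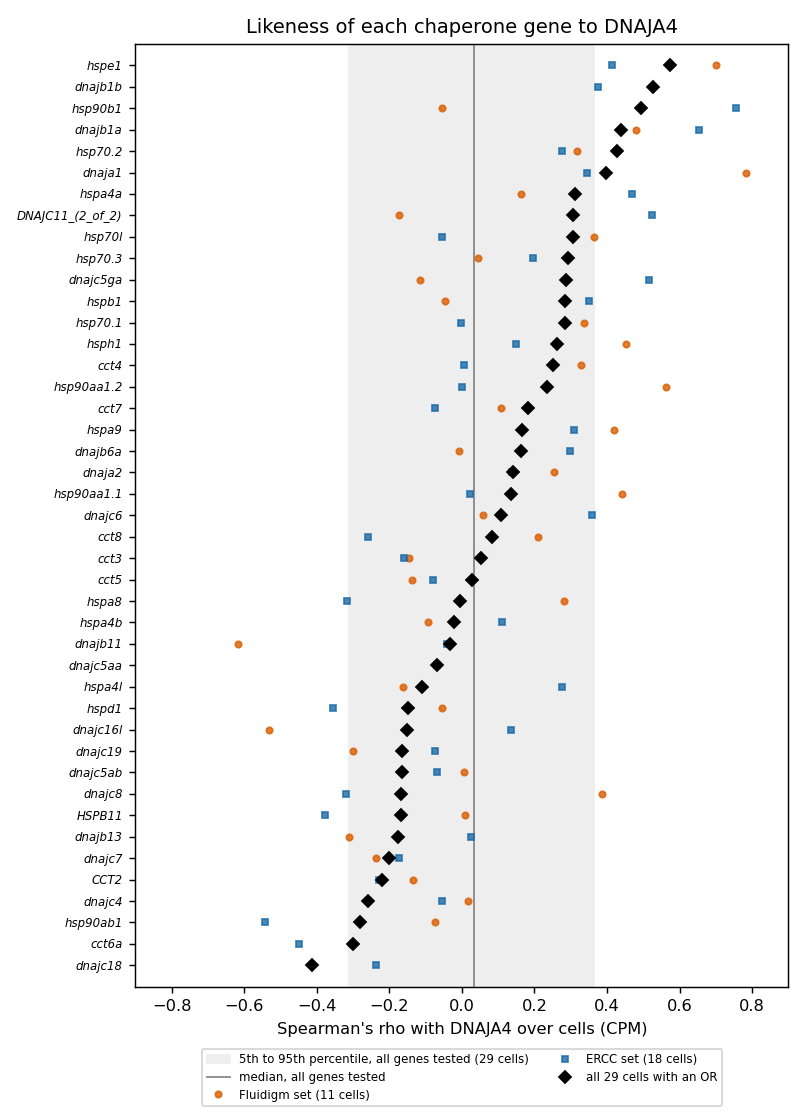
Spearman's rho between DNAJA4 and each of 43 other chaperones over cells with an OR: black diamonds for all 29 cells, orange circles for the 11 Fluidigm cells and blue squares for the 18 ERCC cells; the grey band spans the 5th to 95th percentile of all genes tested and the line is their median. Over all 29 cells hspe1, dnajb1b, hsp90b1, dnajb1a, hsp70.2 and dnaja1 lie to the right of the band and dnajc18 to its left. The other chaperones lie inside it, and the 2 sets often fall apart.

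The inducible genes, in contrast, varied together from cell to cell. Among the 4 hsp70 genes rho over the 47 cells was 0.518 to 0.758. Its median was 0.679 within the Fluidigm set (0.534 to 0.851) and 0.491 within the ERCC set (0.214 to 0.678). Between hsp90aa1.1 and hsp90aa1.2 rho over the 47 cells was 0.862. Reads of these close copies may be shared, and their part in both values was not tested. The summed hsp70 genes also tracked genes that are not copies of them, hsp90aa1.2 at 0.602 (0.565 and 0.584 within the sets) and dnajb1b at 0.509 (0.437 and 0.494). With hspe1 the rho was 0.570, but -0.0022 in the Fluidigm set and 0.640 in the ERCC set. With hspa4a the rho was 0.281, but -0.165 in the Fluidigm set and 0.611 in the ERCC set. Their rho with the summed dissociation genes was 0.321, with -0.108 and 0.534 in the 2 sets. Over all 1326 pairs of the 52 chaperones the median rho was 0.027, against 0.009 for all genes tested, and 133 pairs (10.03%) exceeded the 95th percentile of all gene pairs. Within the sets 5.35% of the pairs did so among Fluidigm cells and 9.73% among ERCC cells.

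Maturity was compared over the 7886 genes that reached 100 counts in 3 or more of all 47 cells, of which 52 were chaperones. For immature cells against mature cells with an OR, edgeR called 0 of 52, with 0% of all genes called. At an unadjusted p under 0.05 there was 1 (1.92%, against 2.19% of all genes), cct4, which was higher (0.786% of all genes were), at a log2 fold change of 5.08 (SE 2.51). Its level was 8285 CPM in the 1 immature Fluidigm cell and 0 to 873 CPM in the 4 immature ERCC cells, against 0 through a median of 1.53 to 2291 CPM in mature cells with an OR, so that 1 cell carried most of the difference. DESeq2 called 12 (23.1%, against 16.1%), of which 8 were higher (8.81% of all genes were) and 4 lower (7.33%). The higher ones included hspa8 and hsp70.1, and also dnajc1, which passed the filter only with its immature cells. None of the lower ones reached 100 counts in an immature cell. The calls of dnajc1 and of the lower genes are therefore a description. The fitted values were higher in immature cells for 24 of 52 chaperones (46.2%, against 34.7%), or for 30 (57.7%, against 49.2%) with the size factors of DESeq2. Their median was -0.27, against -1.65 for all genes. Without the immature ERCC sum, which leaves a single immature cell, 15 were higher (28.8%, against 15.6% of all genes). By family, 6 of 6 HSP70 genes were higher, but 3 without that Fluidigm cell, 6 of 7 CCT genes were, and 0 of 4 HSP110 genes were, but 2 with the size factors of DESeq2.

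For mature cells without an OR against mature cells with an OR, edgeR again called 0 of 52 (0% of all genes), and 1 (1.92%, against 1.01%) had an unadjusted p under 0.05, dnajc24, a J-domain protein of diphthamide synthesis, which was lower (0.609% of all genes were). It was at 0 CPM in all 13 cells without an OR and reached 100 counts in 2 of the 29 with one, at 458 and 7.98 CPM. Since it passed the filter through other cells alone, it had to be lower here, and its p is no test. DESeq2 called 5 (9.62%, against 6.83%), with cct3, cct8 and hspd1 higher (4.34% of all genes) and dnajc4 and dnajc24 lower (2.5%). Dnajc4 also reached 100 counts in no mature cell without an OR, so both lower calls are a description. The fitted values were higher in cells without an OR for 34 chaperones (65.4%, against 41.7%), or for 38 (73.1%, against 56.1%) with the size factors of DESeq2. Their median was 0.50, against -0.55 for all genes. The count was 21 (40.4%, against 40.3% of all genes) without their Fluidigm sum, which holds 2 cells, and 23 (44.2%, against 23.03%) without their ERCC sum, which holds 11. All 7 CCT genes and all 6 HSP70 genes were among the 34, but only 3 and 1 of them were higher without that Fluidigm sum.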

How the data were processed

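Single cells and bulk samples of sorted OSNs were profiled by RNA-seq. The authors deposited raw read counts per gene, without normalization. According to their methods, reads were trimmed, mapped to GRCz10 by STAR and assigned to genes by VERSE; the submitters' processing notes name CASAVA 1.8.2, STAR and HTSeq. The sources differ on how bulk RNA was amplified. Per-sample columns left unused numbered 0. RefSeq symbols matched 84 of 89 members; no sequence or transcript length was used, so levels are not compared between genes.

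CPM were computed from column totals. The members and gene lists were chosen with earlier results of these data known. Named genes are DNAJA4, any member past the threshold, the 2 to 4 highest in each family, the 5 largest clade A differences with 1 direction in both sets, the inducible genes and the 3 highest and lowest in rho; others were named after their values were seen. Counts were summed per class and set (6 sums per fit) and tested by quasi-likelihood in edgeR 4.0.16 under R 4.3.3, with TMM and Benjamini-Hochberg adjustment over all genes. Standard errors are the log2 fold change over the square root of F. DESeq2 1.42.0, other filters, the set as a block and leaving out sums served as alternatives. The set is read as the run, so it pairs the sums; their deviations correlated at 0.0395 to 0.0656 (clades) and 0.0529 to 0.147 (maturity). The fit was tested on simulated data, in which it recovered few changed genes at the spread estimated here. Labels name no animals, so p-values measure the spread between sums.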

Additional observations from a re-analysis of the deposited data

Results flagged for a closer look

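In classes of 5 to 10 cells, 16 of 48 combinations of a class and a measure had a highest cell far above the next, where chance would mark about 1 in 20 for values with a normal spread; the cause was not tested. For DNAJA4 these were 1 clade B cell at 25.9 CPM (next 0.779) and 1 clade C cell at 1723 CPM (next 435). That clade C cell also had the highest summed HSP60 and HSP10 (1947, next 424) and CCT genes (1272, next 479) of its clade. Its summed DNAJA genes (1723, next 476) were highest too, but this was nearly all DNAJA4 and is no separate observation. In clade B 1 Fluidigm cell had the highest summed hsp70 genes (46255, next 17715), HSP70 family (46276, next 25664), small heat shock proteins (802, next 135) and DNAJB genes (4156, next 1628), all in CPM. The HSP70 family sum includes the hsp70 genes, so these are not separate observations. Another clade B cell, of the ERCC set, was highest for HSP60 and HSP10 (738, next 119) and CCT genes (2842, next 1319), and a further one for DNAJC genes (3656, next 1641). Single cells also stood apart in clade A for HSP60 and HSP10 (1145, next 412), in clade C for the small heat shock proteins (817, next 226), and among immature cells for DNAJA genes (1622, next 442) and the small heat shock proteins (0.506, next 0.115 CPM). The values of 817 and 226 CPM in clade C came from HSPB11.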

How the results depend on the processing

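Of 283 values under an alternative, 255 were kept, 17 moved, 10 became stronger and 1 changed sign, and 84 of them left out 1 sum. Kept meant an equal number for counts of calls, and the same direction and side of the threshold for fold changes of single genes. For medians, rho and the DNAJA4 fold change it meant a shift below the SD between the sets. A share of cells had to stay in its interval, and a summed level within 1 SD of its class. edgeR called 0 chaperones in each of the 5 comparisons under TMM, DESeq2 size factors, the filters, the block and each sum left out, which at this spread between sums says nothing about stability, while DESeq2 called 5, 6, 7, 12 and 5 (clades A, B and C, immature cells, cells without an OR). With the spike-in set as a replicate block the clade A median was 0.86 on the log2 scale, with 4 chaperones at an unadjusted p under 0.05 in place of 7, and the block changed no call at the adjusted p. Leaving out 1 sum moved that median between 0.55 and 1.74 and the DNAJA4 log2 fold change between 4.28 and 6.49; without the 3 cells with a weak OR the fold change was 6.46. The dnajc18 difference lay between -8.39 (without the clade A ERCC sum) and 15.73 (without the clade B ERCC sum). The median rho with DNAJA4 was 0.0136 in the Fluidigm and 0.00526 in the ERCC set. Of 110 summed levels recomputed within 1 set 98 medians moved by less than 1 SD between the cells of their class, although that of the hsp70 genes in clade B was 17715 CPM in the Fluidigm set, against 4584 over both sets, and 12 moved by more, all in the Fluidigm set: all members in immature cells (61716 CPM), hsp70 genes in cells without an OR (16427) and immature cells (19981), the HSP70 family in clade A (33821), clade B (25664), cells without an OR (23712) and immature cells (36412), HSP60 and HSP10 (1878), DNAJA (733) and CCT (7596) in cells without an OR, CCT in immature cells (9734) and DNAJB in clade C (1666). The cause of these changes was not tested.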
